A study of Mus musculus with 3 samples.

Results

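The Sox and forkhead genes encode the transcription factors with an SRY-type HMG box and those with a forkhead domain. They were taken here as all genes named Sox or Fox (subclasses a to s) followed by a number that had a probe set of their own, without Sox6 and Sox10, which the rule leaves out. This gave 60 genes (17 Sox and 43 forkhead) with 66 probe sets, among 22180 genes with 23521 probe sets in the whole series. The series holds 3 replicate cultures of wild-type CD-1 mouse cells from the medial ganglionic eminence (MGE), the embryonic ventral forebrain region that produces many cortical and striatal interneurons, dissected at embryonic day 13. All cultures were plated at 59000 cells per square centimetre with FGF2 (40 ng/ml), were given AraC, a nucleoside analogue toxic to cells in DNA synthesis, at 1 µM for 24 h from day 5, had their medium changed 3 times at intervals of 2 h, and were kept for 2 further days. RNA (100 ng) was hybridised to 1 array per culture. The labels call them biological replicates. All of them had AraC and the medium changes and no other group was analysed here, so nothing below is a response to AraC or to purification.

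SOX proteins bend DNA at a short AT-rich site and usually act with a partner factor such as a POU protein. In the developing forebrain, SOXB1 proteins keep neural progenitors undifferentiated, SOXC proteins accompany neuronal differentiation, SOXD and SOXE proteins act in glial lineages, and SOXF proteins act in vessel walls. Forkhead proteins are winged-helix factors with more scattered roles. These range from early germ layers and single organs (FOXA, FOXE, FOXI) to widely used regulators of stress, growth and division (FOXO, FOXK, FOXM1). These statements are background and not results of the arrays.

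All values are deposited log2 signals, given per culture in the order 1, 2 and 3 or as a mean ± SD over the 3 cultures. A gene was called above background when limma's moderated test, 1-sided, placed the mean of a probe set over a background line with a Benjamini-Hochberg adjusted p under 0.05, adjusted over all 22081 probe sets tested. The line, 6.26, was the 95th percentile of 1440 probe sets for chemosensory receptors (Olfr, Vmn1r, Vmn2r and Tas2r genes), which brain cells mostly do not use. A stricter call asked for a mean over the line plus 1 log2 unit (7.26). Probe sets bind with different strength, so levels of different genes are not compared. The labels call the cultures purified interneurons. All 10 measured markers of GABA and MGE neurons passed the stricter line, as did 10 of 11 oligodendrocyte, 8 of 12 astrocyte and 7 of 9 progenitor markers, 1 of 10 microglial markers and 0 of 12 endothelial markers. Of all genes tested, 47.6% passed the stricter line. At the lower line 7 of 10 microglial (70%) and 7 of 12 endothelial markers were above background, against 63.4% of all genes tested. Each signal below therefore belongs to a whole culture, in which fewer cells of a type cannot be told apart from less RNA per cell. The 3 arrays had medians of 6.57, 6.52 and 6.56, and their number limits the precision.

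Of the 60 genes, 40 were above background (66.7%), against 63.4% of all 20751 genes tested, and 24 passed the stricter line (40%), against 47.6% of all genes. The families differed in where those calls lay. Of the 17 Sox genes, 13 were above background and 12 passed the stricter line. Of the 43 forkhead genes, 27 were above background and 12 passed the stricter line, so 15 forkhead genes were called at the lower line alone. With the Sox gene Sox17 these make 16 of 60 members, and 15.8% of all genes tested were called at the lower line alone. These 16 calls depend on the line: with the 99th percentile (7.10) or with keratin, defensin and cornified envelope genes as the background (7.27), 24 of the 60 genes were called. The Sox calls at the stricter line were alike within each sequence group of the family. All 12 members of groups B to E passed it, and none of the 5 members of groups F to H did. Among forkhead genes, the 12 that passed the stricter line all belonged to subclasses J, K, M, N, O and P (12 of 18 genes), while 0 of the 25 genes of the other subclasses did. That split of the forkhead letters was drawn after the values were seen. The cut between Sox groups E and F was not planned before the values were seen either.

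Promoters are shown because members not above background had CpG-rich windows in a larger share than other genes not above background. The RefSeq promoter table (build GRCm38.p6) held a start for 40 of the 60 genes, and the 250 bases before the start were read on the gene's strand. A window was counted as CpG-rich when its ratio of observed to expected CpG was over 0.6 and its GC content over 50%, and a gene with several windows was CpG-rich if any of them was. Capitals mark CpG dinucleotides in the 5 windows below, which were picked as examples of each kind: Foxk2 (chr11:121259737-121259986, + strand) and Sox2 (chr3:34649745-34649994, + strand), above the stricter line and CpG-rich; Foxf2 (chr13:31625566-31625815, + strand), not above background and CpG-rich; Foxn1 (chr11:78386609-78386858, - strand), not above background and CpG-poor; and Sox5 (chr6:143947107-143947356, - strand), above the stricter line with a CpG-poor window.
Foxk2: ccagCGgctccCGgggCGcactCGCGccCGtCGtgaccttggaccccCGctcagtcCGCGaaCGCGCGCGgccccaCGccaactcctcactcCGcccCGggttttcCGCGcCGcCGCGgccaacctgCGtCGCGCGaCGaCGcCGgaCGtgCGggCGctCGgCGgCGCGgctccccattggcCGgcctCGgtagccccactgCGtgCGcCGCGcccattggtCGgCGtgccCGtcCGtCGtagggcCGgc
Sox2: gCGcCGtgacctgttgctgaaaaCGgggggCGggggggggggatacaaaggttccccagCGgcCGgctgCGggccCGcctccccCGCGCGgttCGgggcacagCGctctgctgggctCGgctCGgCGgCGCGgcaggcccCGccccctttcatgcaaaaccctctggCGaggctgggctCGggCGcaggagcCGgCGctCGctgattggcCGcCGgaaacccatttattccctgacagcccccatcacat
Foxf2: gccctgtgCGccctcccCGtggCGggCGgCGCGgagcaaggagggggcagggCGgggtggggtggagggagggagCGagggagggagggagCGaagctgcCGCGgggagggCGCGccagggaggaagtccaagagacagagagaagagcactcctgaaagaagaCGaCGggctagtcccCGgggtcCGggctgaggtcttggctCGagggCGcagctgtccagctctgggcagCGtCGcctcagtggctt
Foxn1: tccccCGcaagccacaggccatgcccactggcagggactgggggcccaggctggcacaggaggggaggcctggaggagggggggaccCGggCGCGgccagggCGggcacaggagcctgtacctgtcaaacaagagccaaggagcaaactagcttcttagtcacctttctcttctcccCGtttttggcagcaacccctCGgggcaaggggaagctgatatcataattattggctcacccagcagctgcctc
Sox5: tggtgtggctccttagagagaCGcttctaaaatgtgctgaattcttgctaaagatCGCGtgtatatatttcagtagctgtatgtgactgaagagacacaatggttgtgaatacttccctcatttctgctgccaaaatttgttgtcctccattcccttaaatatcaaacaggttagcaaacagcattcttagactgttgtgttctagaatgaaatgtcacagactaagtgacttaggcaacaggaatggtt

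The Foxk2 window holds 48 CpG dinucleotides and the Sox2 window 27. Foxf2, whose signal was 5.79 ± 0.17, holds 21. Foxn1 holds 7 and the Sox5 window 3. The Foxn1 and Sox5 windows lie at starts inside the span RefSeq gives for those genes, so other starts of the same genes are not covered. Of all 40 members with a window, 29 (72.5%) were CpG-rich, against 48% of all genes tested with a window. Of the 18 members above the stricter line that have a window, 16 (88.9%) were CpG-rich, and for all genes above that line the share was 73.2%. Of the 14 members not above background that have a window, 9 (64.3%) were CpG-rich, namely Foxa1, Foxa3, Foxd2, Foxd4, Foxf2, Foxl2, Foxn4, Foxr1 and Sox30. Among these, Foxa1 (6.36), Foxa3 (6.29), Foxl2 (6.26), Foxn4 (6.38) and Sox30 (6.33) had means just over the line without being called. For all 5434 genes not above background with a window the share was 13.4%. The median number of CpG in the window was 15.5 in the members not above background and 4 in all genes not above background. Foxd1, with 12 CpG, sat at the limit of the definition and was counted as CpG-poor. These shares are descriptions with no test, and the arrays measured neither methylation nor chromatin.

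**Figure D1:**
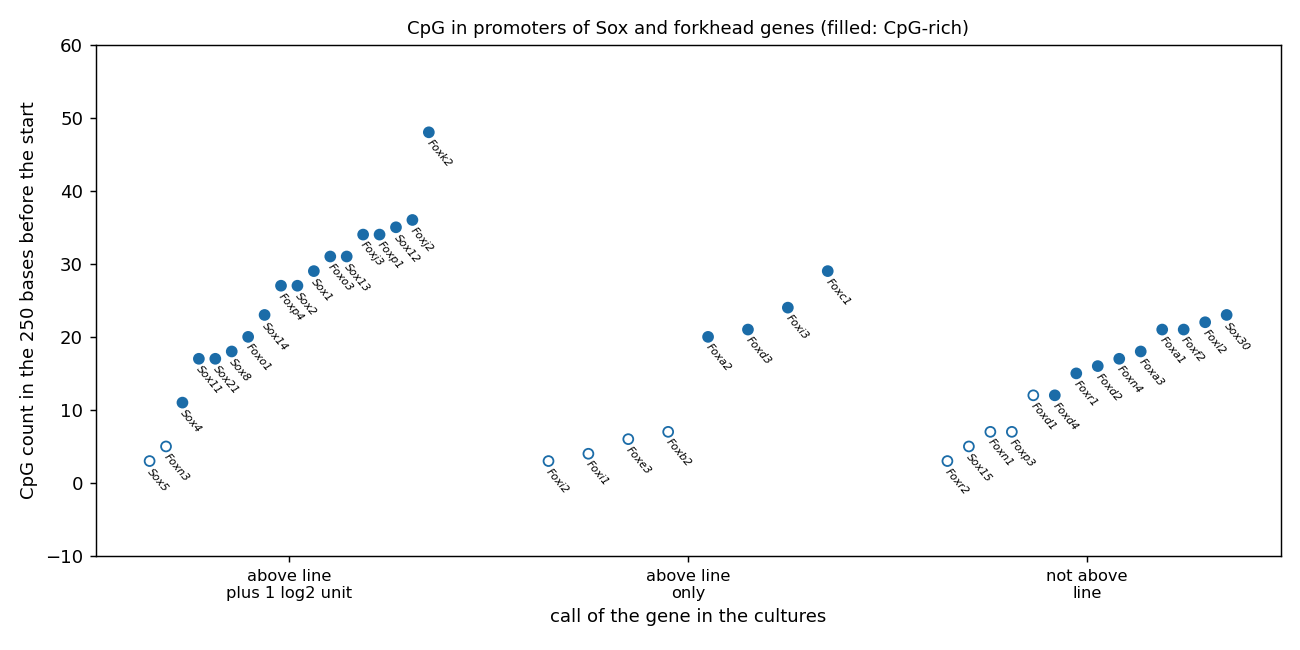
Number of CpG dinucleotides in the 250 bases before the RefSeq start (y axis) for the 40 Sox and forkhead genes with a window, by the call of the gene in the cultures (x axis). Each point is 1 gene, filled where the window is CpG-rich; 16 of 18 points on the left and 9 of 14 on the right are filled.

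The letters ACAAAG, a core SOX site, were searched on both strands of the same windows and stood in 7 of 40 members (17.5%) and in 16.6% of all genes tested that have a window. The Sox2 window itself holds them. The letters GTAAACA, a forkhead core site, stood in Foxa1 and Sox12, 2 of 40 members, and in 2.97% of all genes with a window.

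Every measured gene of the SOXB1 group was far over the line. Sox2, which maintains neural stem and progenitor cells, gave 11.29, 10.66 and 11.04 (mean 11.00 ± 0.32, adjusted p = 5.94e-06). Every culture was far over both lines, and culture 2 lay 0.64 below culture 1, the widest range among the Sox genes. Sox1, another progenitor factor that also acts in ventral forebrain neurons, gave 10.22, 10.19 and 10.11, and the cultures spanned only 0.11. Sox3, the X-linked member, gave 9.02, 8.90 and 8.58 and was lowest in culture 3, not culture 2. The noncoding transcript Sox1ot, listed under its own symbol, was above background too (8.76, 8.38 and 8.59, adjusted p = 1.56e-05).

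The SOXB2 factors, which act largely as repressors and counter SOXB1, were present as well. Sox21 gave 8.94, 8.42 and 8.70 on its stronger probe set and 6.89, 6.44 and 6.84 on its weaker one, and both sets were above background. Both placed culture 2 lowest, as for Sox2. Sox14, known for sets of GABAergic neurons in the diencephalon and midbrain, gave 7.82, 7.50 and 7.70 (adjusted p = 5.73e-05). Its stricter call (adjusted p = 0.00722) was lost when culture 3 was dropped (adjusted p = 0.0595). The stricter Sox count was then 11.

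The SOXC genes, which accompany cell cycle exit and neuronal maturation, all passed the stricter line. Sox4 gave 10.50, 10.24 and 10.26 on its stronger probe set, and its weaker set (7.85, 7.61 and 7.55) passed as well. Sox11 gave 9.41, 9.39 and 9.30. Sox12 gave 9.59, 9.63 and 9.48 (adjusted p = 1.7e-06). The ranges between cultures were 0.12 for Sox11 and 0.14 for Sox12, and 0.26 and 0.30 for the stronger and weaker sets of Sox4. All 10 measured genes of a list of neuronal genes passed the stricter line, against 47.6% of all genes tested. Tubb3, Dcx and Stmn2 of the neuronal cytoskeleton were among them.

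All 4 members of the SOXD and SOXE groups passed the stricter line. Sox6 and Sox10, which the rule leaves out, are not counted here. Sox9, a SOXE factor that starts gliogenesis and stays on in astrocytes, gave 11.65, 11.39 and 11.39 (adjusted p = 1.42e-06). Sox8, a SOXE factor of oligodendrocyte precursors, gave 10.10, 9.66 and 9.77. Culture 1 was the highest for both. In the SOXD group, Sox5, which is used by both glial precursors and postmitotic neurons, gave 8.58, 8.63 and 8.53, and Sox13 gave 7.91, 7.70 and 7.77. Sox5 was even across cultures, with a range of 0.10.

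None of the remaining Sox genes passed the stricter line. SOXF genes direct endothelial identity. Sox17 gave 6.45, 6.42 and 6.43 and was called (adjusted p = 0.0198), the 1 SOXF gene that was. Its call was lost without culture 2 (0.0911) and without culture 3 (0.0784). Sox7 gave 6.48, 6.27 and 6.55 (adjusted p = 0.069) and passed without culture 2 (0.0418). Sox18 (5.89, 5.96 and 5.65) was under the line in every culture. Of 12 measured endothelial markers 7 were above background (58.3%, near the 63.4% of all genes tested) and 0 passed the stricter line (47.6% of all genes). Sox15 (6.09 ± 0.05), the 1 member of group G, and the testis factor Sox30 (6.33 ± 0.09, adjusted p = 0.234) were not called.

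**Figure D2:**
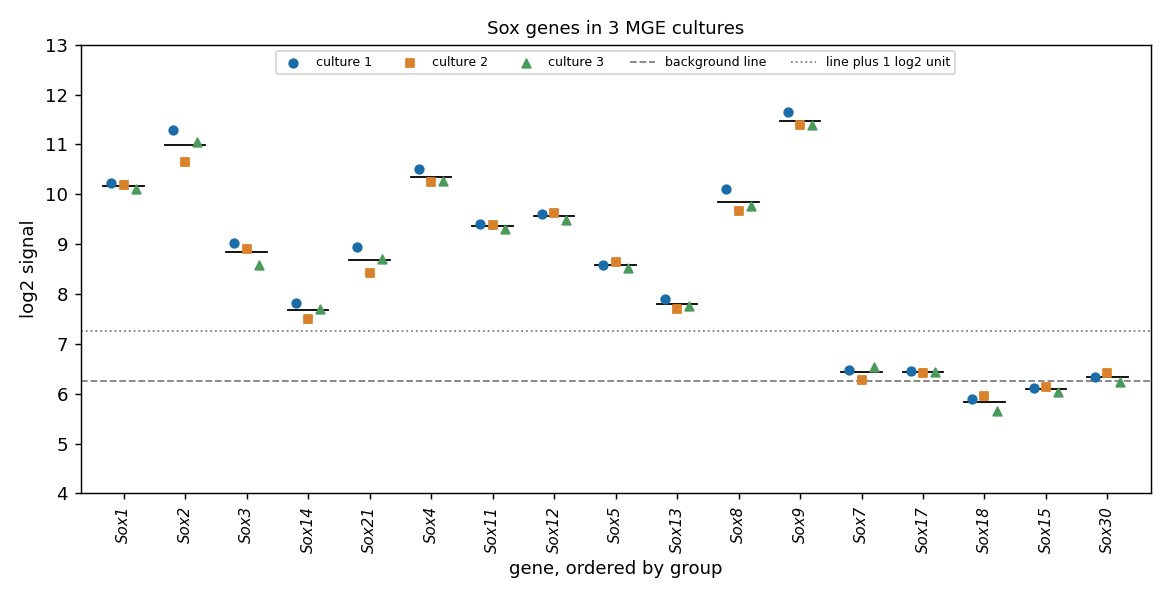
Log2 signal (y axis) of the 17 Sox genes in the 3 cultures, ordered by sequence group B1, B2, C, D, E, F, G and H (x axis). Points are cultures and short bars their means, taken from the stronger probe set; the 12 genes of groups B to E sit above the dotted stricter line of 7.26 and the other 5 lie around the dashed line of 6.26.

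FOXP factors are repressors used in neuronal identity. Foxp1, known in striatal projection neurons, gave 8.90, 8.78 and 8.65 (adjusted p = 5.34e-06). Foxp4, broadly expressed in neural tissue, gave 8.33, 8.11 and 8.04. Both were highest in culture 1 and lowest in culture 3. Foxp2, known for striatal, thalamic and deep cortical neurons, gave 7.04, 6.88 and 7.14. It was above background (adjusted p = 0.000358) but not over the stricter line. Foxp3, the factor of regulatory T cells, was not called (6.12, 5.73 and 6.31), and a further probe set that the table assigns to Foxp3 together with Ccdc22 and Ppp1r3f was not used for the call. All 8 measured subunits of the NuRD complex, a repressor complex that FOXP proteins recruit, passed the stricter line, against 47.6% of all genes tested. Gatad2a, Gatad2b and Mta1 were among them.

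The FOXO factors, which insulin and growth factor signalling keeps out of the nucleus, were all above background. Foxo1 gave 8.22, 8.28 and 8.15 on its stronger probe set, whereas its other set stayed at the line (6.32 ± 0.05, adjusted p = 0.227). Foxo3 gave 8.31, 8.70 and 8.31 and was highest in culture 2. Foxo6, a FOXO of the brain, gave 7.97, 7.94 and 8.08 (adjusted p = 8.76e-06). Foxo4 gave 6.98, 6.85 and 7.15 and did not pass the stricter call. RNA level does not show where a FOXO protein is in the cell. Around them, 15 of 15 measured genes of the upstream pathway were above background (14 over the stricter line), among them Igf1 (8.73 ± 0.61), a growth factor, Igf2 (6.78 ± 0.01), its relative, and Igf1r (9.37 ± 0.19), their receptor. Of 19 measured FOXO target genes 18 were above background (63.4% of all genes tested) and 13 over the stricter line (47.6% of all). They included Cdkn1a (11.75 ± 0.13) and Cdkn1b (9.46 ± 0.04), inhibitors of cell cycle kinases, and Bcl2l11 (7.33 ± 0.18), a promoter of cell death. Trim63 (6.06 ± 0.12), a ubiquitin ligase of atrophying muscle, was the 1 that was not.

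Foxm1, the forkhead factor of dividing cells that turns on genes of G2 and mitosis, gave 8.88, 8.90 and 8.67 in cultures that had been through AraC (mean 8.82 ± 0.13, adjusted p = 5.28e-06). Every culture was over both lines. Its partners, Mybl2 (8.64 ± 0.17) and subunits of the MuvB complex, were above the stricter line in 6 of 6 cases. Among the subunits were Lin9 (7.68 ± 0.09) and Lin37 (8.56 ± 0.11). Of its 15 target genes 15 were above background and 14 over the stricter line, where 63.4% and 47.6% of all genes tested were. Among these targets were Plk1 (10.11 ± 0.15), a mitotic kinase, and Ccnb2 (9.71 ± 0.19), a mitotic cyclin.

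Of the FOXK, FOXJ and FOXN genes, 6 passed the stricter line. Foxk1 (9.32, 9.15 and 9.02) and Foxk2 (10.28, 10.64 and 10.45), regulators of metabolism and autophagy, both passed the stricter line, and their highest cultures differed. Foxj2 gave 9.90, 10.03 and 9.86 and Foxj3 8.77, 8.72 and 8.65. Foxn2 gave 8.70, 8.57 and 8.62, and Foxn3, a repressor linked to the DNA damage checkpoint, gave 9.52, 9.52 and 9.44. Foxn3 had the smallest SD of the members over the stricter line (0.04). Foxn4, which acts in progenitors of retina and spinal cord, was not called (6.45, 6.15 and 6.55), nor was Foxn1 (5.87 ± 0.15), the thymus factor.

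Foxj1, the master factor of motile cilia in ependyma, gave 7.35, 7.97 and 6.98, the largest SD of all 60 genes (0.50). It was above background (adjusted p = 0.00376) but not over the stricter line (0.466), and cultures 2 and 3 differed by 0.99 log2 units. Of 19 measured genes of motile cilia 7 were above background (36.8%, against 63.4% of all genes) and 1 passed the stricter line, Rfx3 (9.14, 8.94 and 8.94), a factor that also serves primary cilia. Most axonemal and assembly genes of the list were not called, and they are named here after their values were seen. Only Dnah9 (6.47 ± 0.03), Dnaic1 (7.02 ± 0.07) and Ccdc40 (7.04 ± 0.14) of them were called, at the lower line alone. Tekt1 (5.78 ± 0.10), Hydin (6.09 ± 0.04) and Spag6 (5.51 ± 0.06) were among the 12 genes of the list not called. So were Tekt4, Dnah5, Dnah11, Dnali1, Rsph1, Rsph4a and Ak7.

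None of the forkhead genes of floor plate, endoderm and other organs passed the stricter line. Foxa2, of floor plate and midbrain dopamine neurons, gave 6.72, 6.42 and 6.62 and was called (adjusted p = 0.0116), though not without culture 3 (0.0719). Foxa1 (6.43, 6.24 and 6.42, adjusted p = 0.144) and Foxb1 of the hypothalamus (6.48, 6.32 and 6.21) were not. Foxd1, known in the developing kidney stroma and diencephalon, was under the line in every culture, at 4.74, 5.10 and 4.89. Foxd3 of neural crest was called (6.66 ± 0.14, adjusted p = 0.00494). So were genes known for organs outside the brain, among them Foxe1 of thyroid (6.71 ± 0.01), Foxe3 of lens (6.71 ± 0.15), Foxi1 of inner ear and kidney (6.74 ± 0.14), Foxi2 (7.02 ± 0.26), Foxi3 (6.69 ± 0.21), Foxl1 of gut mesenchyme (6.66 ± 0.11), Foxf1 of lung and gut mesenchyme (7.15 ± 0.08) and Foxb2 (6.75 ± 0.09). With the 99th percentile as the line none of these was called. Foxi3 was also lost without culture 1 (adjusted p = 0.0508). In a list of neural crest and Schwann cell genes 3 of 6 measured were above background (50%) and 1 over the stricter line. In a list of floor plate and hypothalamus genes 4 of 8 were (50%), and 1 was over the stricter line. Of all genes tested, 63.4% and 47.6% were.

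Forkhead genes of the vessel wall and meninges were mixed in the same range. Foxc1, of meninges and pericytes, gave 6.71, 6.90 and 6.58 (adjusted p = 0.00321), and Foxs1, of pericytes, was called too (6.94 ± 0.08). Foxf2, of brain pericytes, was not (5.62, 5.97 and 5.78), nor was Foxc2 (6.12 ± 0.13). In a list of mural and meningeal genes 9 of 15 were above background (60%) and 3 over the stricter line, where 63.4% and 47.6% of all genes tested were. RefSeq places 3 runs of members directly next to each other among protein-coding genes, and the calls differed within each run. They are Foxq1, Foxf2 and Foxc1 on chromosome 13, of which only Foxc1 was called, Foxd2 and Foxe3 on chromosome 4, of which only Foxe3 was, and Foxc2 and Foxl1 on chromosome 8, of which only Foxl1 was.

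The other forkhead genes were not called. They are Foxa3 of the liver (6.29 ± 0.22), Foxd2 (6.07 ± 0.14), Foxd4 (5.40 ± 0.19), Foxh1 (5.93 ± 0.21), Foxl2 of the ovary (6.41, 5.92 and 6.46), Foxq1 (6.16 ± 0.16), Foxr1 (5.86 ± 0.17) and Foxr2 (6.24 ± 0.21). Of all 20 members not called, 10 were under the line in every culture, 2 were over it in 1 culture, 7 in 2 cultures and 1, Sox7, in all 3.

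**Figure D3:**
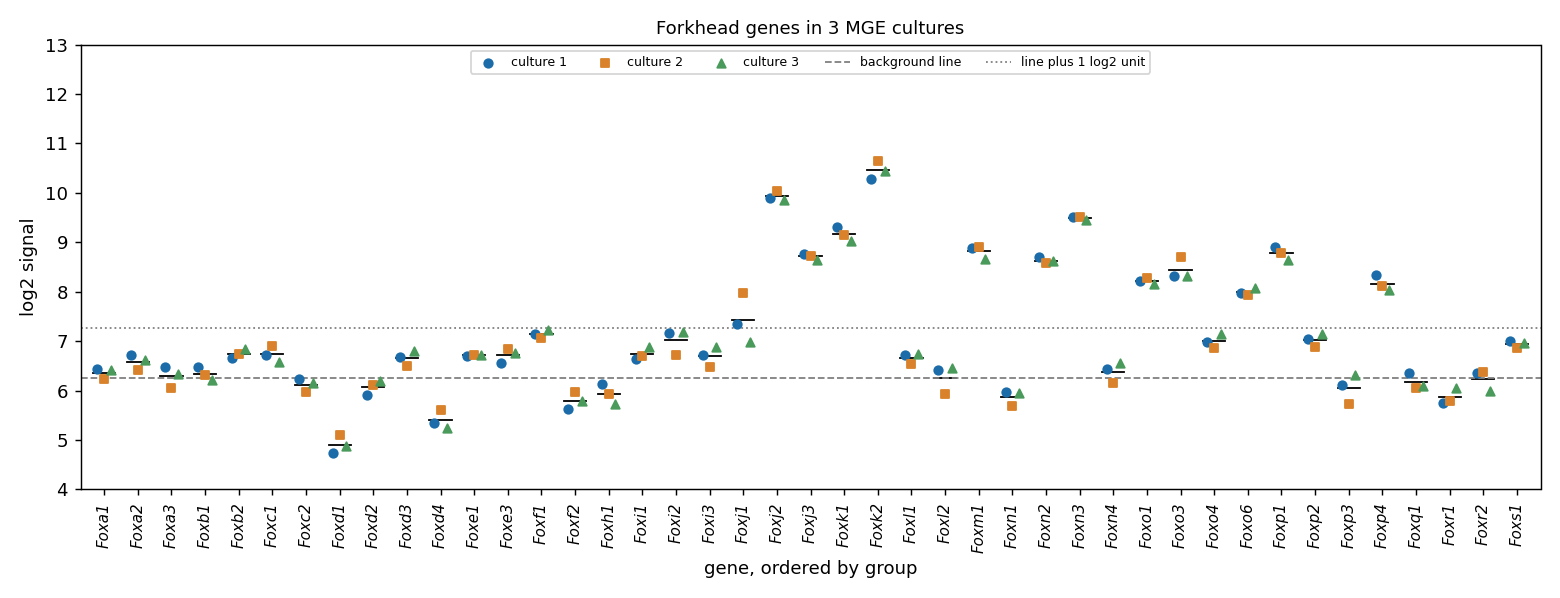
Log2 signal (y axis) of the 43 forkhead genes in the 3 cultures, in alphabetical order of subclass (x axis). Points are cultures and short bars their means, taken from the stronger probe set; the 12 genes called over the dotted stricter line of 7.26 stand only between Foxj2 and Foxp4, and Foxj1 shows the widest spread.

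In 6 genes 2 probe sets carried the same symbol, and their means were far apart for some. The stronger set exceeded the weaker by 4.13 log2 units for Foxj2, 2.66 for Sox4, 1.96 for Sox21 and 1.89 for Foxo1, and by 0.53 for Foxe1 and 0.51 for Foxq1. The call was the same for both sets in Sox4, Sox21 (above background) and Foxq1 (not), and differed in Foxe1, Foxj2 and Foxo1. The printed levels are those of the stronger set. With the mean of a gene's sets in its place, the call of Foxe1 was lost.

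The 3 cultures differed little for most members. The median SD over the 66 probe sets was 0.15 log2 units (0.13 for all 22081 probe sets tested), and 0 of 66 spanned more than 1 log2 unit (1.28% of all tested). A range over 0.5 was found in 6 of 66 (13.9% of all tested), namely in sets of Foxe1, Foxj1, Foxl2, Foxp3, Sox2 and Sox21. The median SD was 0.09 with culture 2 left out. That SD is over 2 cultures and tends to be smaller than one over 3, so it is not set against the 0.15. Over the 25 sets above the stricter line, 14 were lowest in culture 3 (32.7% of all sets over that line).

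Sox genes leaned towards culture 1. Of the 13 Sox probe sets over the stricter line, 11 were highest in culture 1 (32% of all 10161 probe sets over that line) and none was lowest there (46.3% of all). The exceptions were Sox5 and Sox12, both highest in culture 2. After a further quantile normalization 13 of 13 were highest in culture 1 (36.5% of all), and after centring the arrays on 1 median 9 of 13 were (24.1% of all). The deviation was small. Its median in culture 1 was 0.17 log2 units for these Sox sets and -0.02 for all sets over the stricter line. Forkhead sets over the stricter line were highest in culture 1 in 6 of 12 cases, with a median deviation of 0.04 there, and in 8 of 12 and 4 of 12 under the other scalings.

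Marker lists moved between the same cultures. Of the astrocyte markers 11 of 12 were highest in culture 1, of the oligodendrocyte markers 10 of 11, of the progenitor markers 9 of 9 and of the FOXM1 targets 13 of 15, while of the GABA and MGE neuron markers 0 of 10 were. Of all 22081 probe sets tested, 33.4% were highest there. Lists that mark no cell type varied too. The counts were 7 of 8 NuRD subunits, 4 of 6 Groucho and CtBP genes, 5 of 15 FOXO upstream genes and 2 of 6 FOXM1 partners. The median deviation in culture 1 was 0.42 for oligodendrocyte, 0.32 for astrocyte and 0.22 for progenitor markers, and -0.21 for GABA and MGE neuron markers. In culture 2 it was -0.28, -0.30, -0.14 and 0.16 in the same order. Over the list, the median level of astrocyte markers was 8.62, 7.66 and 8.21, and that of GABA and MGE neuron markers 10.09, 10.47 and 10.33. Their part in the Sox values was not tested. Each culture is 1 array, so no test between cultures can be made.

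**Figure D4:**
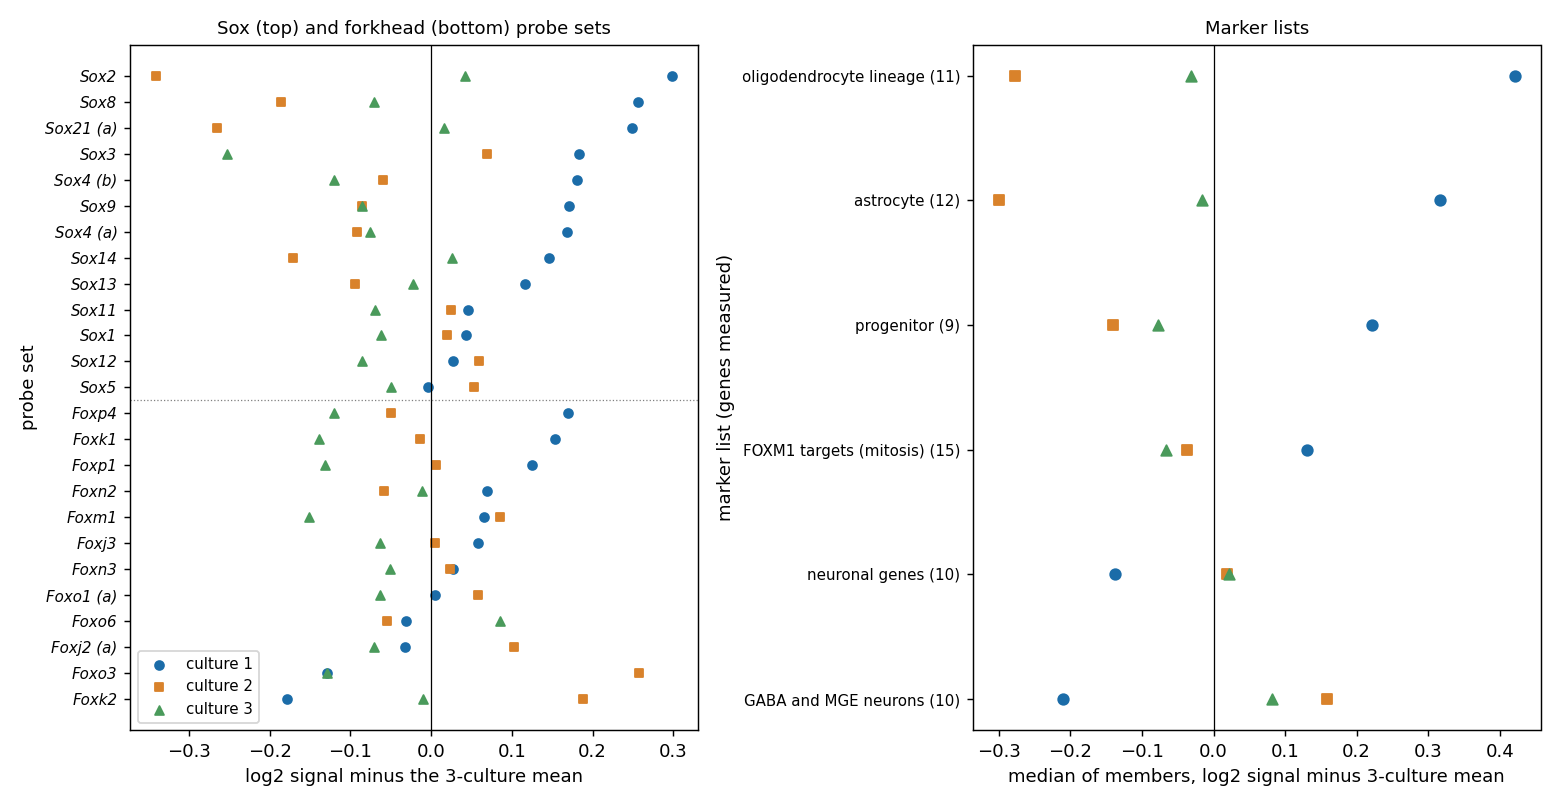
Left, deviation of each culture from the 3-culture mean (x axis, log2 units) for the 25 Sox and forkhead probe sets over the stricter line (y axis; a and b mark the stronger and weaker set of a gene). Right, the median deviation of the members of 6 marker lists; blue circles of culture 1 lie right of 0 for 12 of the 13 Sox sets and for the glial and progenitor lists, and left of 0 for the neuronal lists.

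Partners of the SOX and forkhead proteins were widely above background. Of 7 measured POU genes, 6 were above background and 5 over the stricter line (63.4% and 47.6% of all genes tested). Among them were Pou3f1 (8.42 ± 0.04), Pou3f2 (8.83 ± 0.12) and Pou3f3 (10.14 ± 0.19), neural POU factors that bind DNA beside SOX2. Pou5f1 (6.23 ± 0.09), its partner in embryonic stem cells, was not called. All 6 measured Groucho and CtBP corepressors passed the stricter line, among them Tle1 (7.98 ± 0.17), Tle2 (8.40 ± 0.38) and Tle3 (10.10 ± 0.21). Of 6 choroid plexus genes only Otx2 (8.74 ± 0.31) was called above background. Ttr, the abundant choroid transcript, gave 6.58, 6.34 and 7.50 (mean 6.81 ± 0.61). It was over the line in every culture but was not called (adjusted p = 0.0741). In all, 162 of the 211 measured genes of the 20 lists were above background, where 63.4% of all genes tested were. The lists were not tested as sets.

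**Figure D5:**
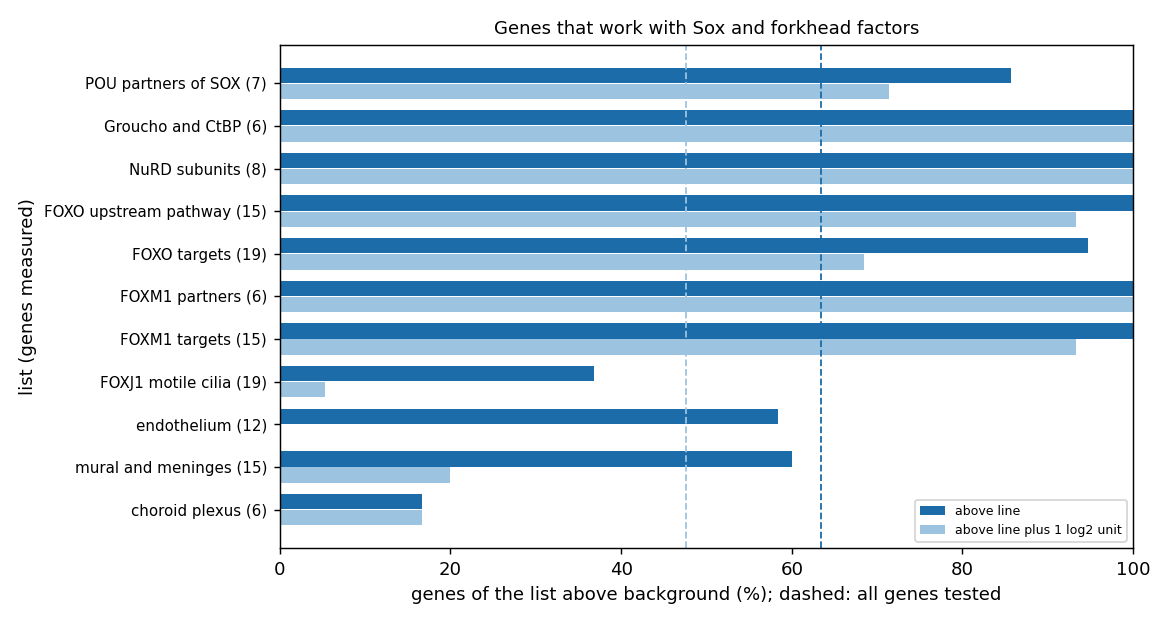
Share of measured genes above background (x axis, percent) in 11 lists of genes that work with or beside the Sox and forkhead factors (y axis, genes measured in parentheses). Dark bars are calls at the line and light bars calls at the stricter line. Dashed lines mark the shares of all genes tested, 63.4% and 47.6%. Motile cilia, endothelium, mural and meninges, and choroid plexus lie under both lines.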

How the data were processed

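RNA from 3 cultures was labelled with biotin and hybridised to 1-colour arrays, 1 array a culture. The deposited values are log2 signals per probe set that the authors made with oligo and RMA, per the submitters' processing notes; RMA normalizes the arrays to each other, which can hide differences shared by most genes. Versions and probe annotation were not stated in what was used here. Gene names came from the platform's probe-to-gene table. Only probe sets with 1 symbol were used (23521 of 41345), and symbols of all 60 genes matched the RefSeq table of GRCm38.p6. The values were tested with limma 3.58.1 in R 4.3.3 (lmFit and eBayes, 1-sided, against the background line), with Benjamini-Hochberg adjustment over 22081 probe sets. The p-values rest only on spread between these 3 samples, moderated by that of all probe sets tested, and take the line as fixed. The code was tested on simulated data. A gene with several probe sets was called if 1 of them was, and its printed value is that of its stronger set. Members, lists and the rule for named genes (every member; in the lists the first 3 measured genes, single called genes and single uncalled ones) were chosen with earlier results of these data known. Alternatives were other background lines, a call without a test, a trend in the prior, further scaling, leaving out dim probe sets, the mean of a gene's sets, and leaving out each culture. Protein sequences were not analysed here.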

Additional observations from a re-analysis of the deposited data

How the results depend on the processing

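Calls of members depended mainly on the background line. At the 99th percentile (7.10), and equally with keratin, defensin and cornified envelope genes as background (7.27), 24 of 60 members were called in place of 40, and 12 forkhead genes in place of 27. Under both lines the means of Foxa2 (6.59), Foxb2 (6.75), Foxc1 (6.73), Foxd3 (6.66), Foxe1 (6.71), Foxe3 (6.71), Foxi1 (6.74), Foxi2 (7.02), Foxi3 (6.69), Foxl1 (6.66), Foxo4 (6.997), Foxp2 (7.02), Foxs1 (6.94) and Sox17 (6.43) lay under the line, and that of Foxf1 (7.15) did against the second of these. With 1 log2 unit added, so did Foxo6 (7.997), Sox13 (7.79) and Sox14 (7.67) under both, and Foxo1 (8.22) and Foxp4 (8.16) against the second of these. Here the higher line itself is what differs. Over all 13 settings, 24 members were called in each, 8 in none and 28 in some. Leaving out 1 culture gave 38 to 40 members, 12 to 13 Sox genes, 26 to 27 forkhead genes, 23 to 24 members over the stricter line, 11 to 12 of them Sox and 12 to 12 forkhead, and 151 to 157 genes of the pathway lists (162 with all cultures). The median SD was 0.0857 without culture 2 and up to 0.134 without culture 3; the cause was not tested. No paired analysis was possible because there is 1 group.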
